A study of Mus musculus with 9 samples.

Results

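The genes of the MHC class II antigen presentation machinery and their transcriptional regulator were described across mouse pancreatic ductal adenocarcinoma cells sorted from lungs. Members were all entries of the expression table whose gene symbol was H2-Aa, H2-Ab1, H2-Eb1, Cd74, H2-DMa, H2-DMb1 or Ciita. These 7 symbols matched 8 of the 24012 entries, because Ciita was listed under 2 gene IDs. The genes were chosen by their measured levels in the DTC libraries relative to the other groups, so every comparison with DTC is given for them as a description without a test. Only mCherryHigh with mCherryLow was tested for them.

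The 3 groups were DTC, mCherryHigh and mCherryLow, with 3 libraries each. All 9 libraries came from tumour cells of the labelled genotype SIRT6F/F/p48-Cre/p53F/+KrasL/+, in which the p48 promoter drives Cre in the pancreatic lineage, and all the cells expressed GFP and a Gstt1-mCherry reporter. The cells were recovered from lungs of mice injected through the tail vein. DTC libraries were made from cells sorted by GFP at 5 days. mCherryHigh and mCherryLow libraries were made from cells sorted by GFP and by high or low mCherry at 6 weeks. Neither the age nor the strain of the mice is given in the labels, nor whether each library had its own mouse, and the spread within a group may therefore be technical. All 3 DTC libraries also carried a code series of their own in the labels. The DTC state, the time, the sort gate and the code series cannot be told apart.

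Class II molecules are heterodimers of an alpha and a beta chain that display peptides from endosomal proteins to CD4+ T cells. The invariant chain Cd74 escorts newly made heterodimers to endosomes and blocks their groove, and the H2-DM heterodimer exchanges the last fragment of Cd74 for peptide. Ciita is a coactivator without DNA binding of its own that is recruited by RFX, NF-Y and CREB factors to the X and Y boxes of class II promoters. In lung, class II is carried mainly by dendritic cells, B cells, macrophages and alveolar type 2 cells, and interferon gamma induces Ciita in many other cells.

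Levels are given in CPM, which scale the reads of every library to the same total. Library totals lay between 923988 and 2052623 reads in DTC, 643748 and 9800173 in mCherryHigh, and 2051266 and 11861241 in mCherryLow. Where no read was seen, a level of up to 3 reads remains possible, equal to 4.66 CPM in mCherryHigh 1 and 0.253 CPM in mCherryLow 6. The epithelial tumour markers Epcam and Krt19 had reads in all 9 libraries. Their levels were 4.38 to 21.3 and 74.7 to 885 CPM in DTC, 10.9 to 45.4 and 1102 to 2369 CPM in mCherryHigh, and 12.5 to 28.8 and 896 to 1320.4 CPM in mCherryLow. The low Epcam levels in DTC are set beside a background further below. DTC 3 stood apart in these markers, since the summed CPM of 9 ductal epithelial genes was 463 in DTC 3, against 5363 and 6065 in DTC 1 and DTC 2. Whether fewer cells of a type or less RNA per cell underlies a level in these bulk libraries cannot be told apart.

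The alpha and beta chain genes were abundant in all 3 DTC libraries and near the limit of detection in several of the others. H2-Aa (ENSMUSG00000036594), the alpha chain of the A molecule, had 253, 245 and 176 CPM in DTC 1, 2 and 3, against 4.66, 5.00 and 3.58 CPM in mCherryHigh 1, 5 and 6 and 3.90, 0.0939 and 0 CPM in mCherryLow 1, 5 and 6. The lowest DTC library was far above every library of the other groups, and mCherryHigh and mCherryLow overlapped. H2-Ab1 (ENSMUSG00000073421), the beta chain that pairs with H2-Aa, had 311, 351 and 242 CPM in DTC, against 4.66, 17.3 and 6.95 CPM in mCherryHigh and 8.78, 0.0939 and 0 CPM in mCherryLow. H2-Eb1 (ENSMUSG00000060586), the beta chain of the E molecule, had 227, 225 and 154 CPM in DTC, against 3.11, 0 and 4.29 CPM in mCherryHigh and 4.39, 0.0939 and 0 CPM in mCherryLow. For each of these 3 genes DTC 3 was the lowest DTC library and mCherryLow 1 the highest mCherryLow library.

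Few reads stood behind the low values. H2-Aa, H2-Ab1 and H2-Eb1 had 3, 3 and 2 reads in mCherryHigh 1, and 8, 18 and 9 reads in mCherryLow 1. Each had 1 read in mCherryLow 5 and none in mCherryLow 6, and these were the libraries with the second largest and the largest totals. The absence of reads in mCherryLow 6 allows up to 0.253 CPM, and in mCherryHigh 5 the absence of H2-Eb1 reads allows up to 0.306 CPM. DTC levels rested on 163 to 502 reads for H2-Aa, so the exact Poisson interval (95%, covering counting error only) in DTC 3 was 150.4 to 206 CPM.

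On the log2(CPM + 1) scale, which understates the change of genes at low level, the DTC means exceeded the mCherryLow means by 6.99 ± 0.64 for H2-Aa, 7.08 ± 0.76 for H2-Ab1 and 6.79 ± 0.66 for H2-Eb1 (difference ± SE, n = 3 libraries each). DTC exceeded mCherryHigh by 5.37 ± 0.43, 4.99 ± 0.49 and 6.16 ± 0.65 for the same 3 genes. Both comparisons use the same DTC libraries. The median difference of all genes tested was 0.59 for DTC minus mCherryLow and 0.55 for DTC minus mCherryHigh, so the middle of the distribution lay above 0 at this scaling. Under the 17 alternatives run for each comparison these differences were 4.39 or more for the 3 genes.

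**Figure D1:**
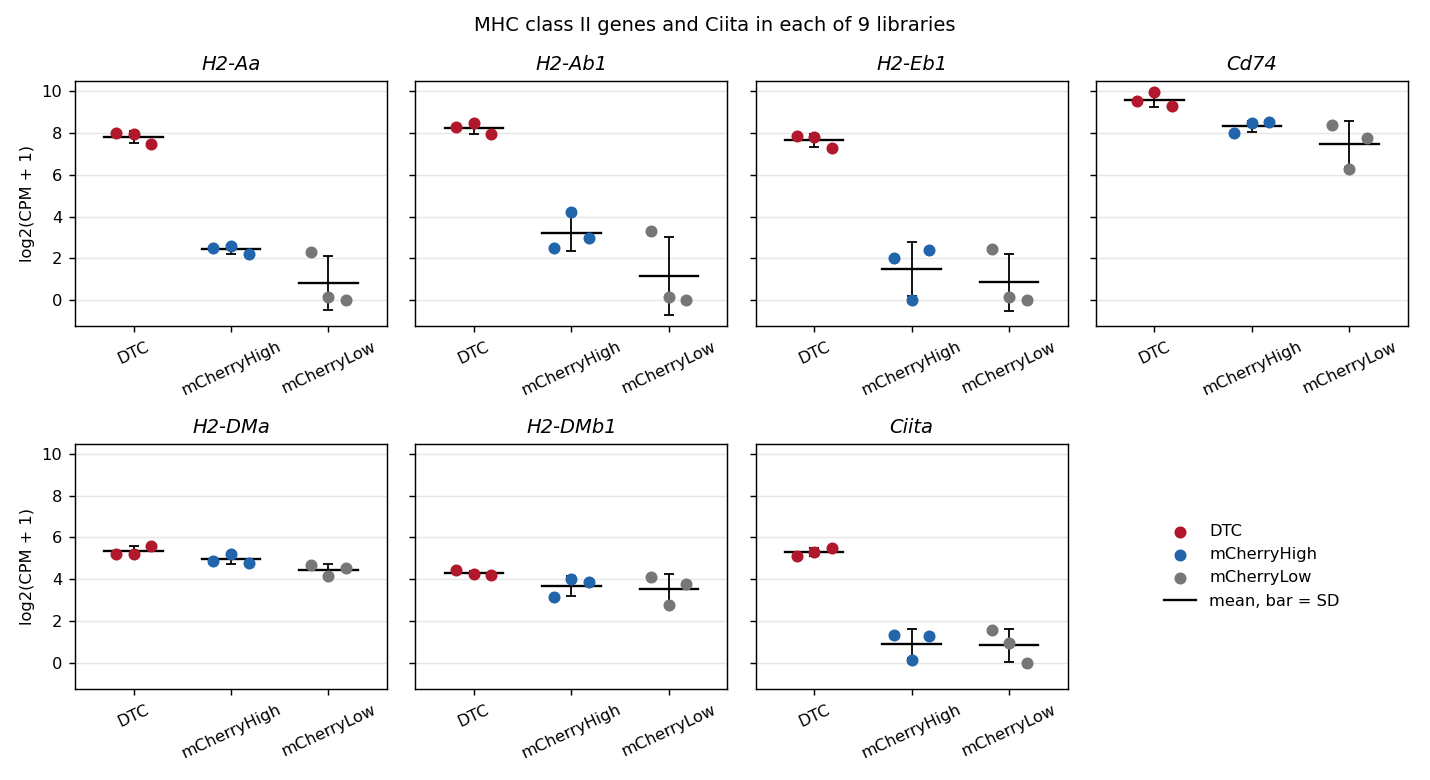
Level of each member as log2(CPM + 1), with DTC, mCherryHigh and mCherryLow from left to right, 1 point per library and the mean with SD as a line and bar. H2-Aa, H2-Ab1, H2-Eb1 and Ciita are high in all 3 DTC libraries, Cd74 is present everywhere and higher in DTC, and H2-DMa and H2-DMb1 differ little.

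The windows before 3 member genes are printed here because each holds letters that match the cores of the X and Y boxes. The sequences are the 150 bases before the RefSeq gene start on GRCm38.p6, a later build than the mm9 that the submitters' processing notes give. Read 5′ to 3′ on the gene's own strand, the capitals mark the X core TNGNAAC and, after it, the Y core TGATTGG. H2-Aa lies on the minus strand at chr17:34287824-34287973, H2-Eb1 on the plus strand at chr17:34305717-34305866 and H2-DMb1 on the plus strand at chr17:34153041-34153190.
H2-Aa: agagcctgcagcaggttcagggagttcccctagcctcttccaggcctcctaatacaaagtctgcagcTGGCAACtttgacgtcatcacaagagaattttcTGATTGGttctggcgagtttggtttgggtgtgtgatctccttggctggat
H2-Eb1: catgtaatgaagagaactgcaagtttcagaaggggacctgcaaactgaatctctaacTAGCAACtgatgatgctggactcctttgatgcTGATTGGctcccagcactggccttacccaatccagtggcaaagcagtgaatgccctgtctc
H2-DMb1: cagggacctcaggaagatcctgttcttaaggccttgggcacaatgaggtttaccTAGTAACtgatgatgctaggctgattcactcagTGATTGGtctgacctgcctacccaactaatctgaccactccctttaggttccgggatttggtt

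The cores read TGGCAAC in H2-Aa, TAGCAAC in H2-Eb1 and TAGTAAC in H2-DMb1, with 26, 25 and 26 bases between the X and the Y core. The cores were written down after these windows had been read, so their match is a description. Over the 250 bases before each gene start and on both strands, the X core occurred in 30.7% of 32851 RefSeq promoter windows and the Y core, a CCAAT box that NF-Y binds, in 7.23%. An X core followed by a Y core after 20 to 30 bases occurred in 19 windows, 0.0578% of all, and these belonged to 17 gene symbols. H2-Ob, the beta chain of the H2-DM inhibitor H2-DO, was among them. The 2 windows of H2-DMa held no such pair, which says only that these letters are not in these windows. No window for H2-Ab1 or Ciita was used here.

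Within DTC the 3 chain genes kept close proportions. Per kilobase of the longest GENCODE transcript, H2-Aa stood at 0.877, 0.749 and 0.782 of H2-Ab1 in DTC 1, 2 and 3, and H2-Eb1 at 0.530, 0.466 and 0.460 of H2-Ab1. DTC 1 was highest in both ratios. H2-Aa stood at 0.310 and 0.553 of H2-Ab1 in mCherryHigh 5 and 6, and H2-Eb1 at 0 and 0.449, from 49 and 35 reads of H2-Aa, 0 and 42 of H2-Eb1 and 170 and 68 of H2-Ab1. These H2-Aa ratios were below those of the 3 DTC libraries, but no counting interval was computed for them. Whether they differ beyond counting error was not tested. mCherryHigh 1 and the mCherryLow libraries had no more than 18 reads of any of these genes, too few for a ratio.

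Cd74, the invariant chain, was the most abundant member in every library. Cd74 (ENSMUSG00000024610) had 738, 988 and 621 CPM in DTC, against 258, 349 and 362 CPM in mCherryHigh and 336, 76.4 and 218 CPM in mCherryLow. The DTC libraries did not overlap with either other group, and mCherryHigh overlapped with mCherryLow only through mCherryLow 1. DTC exceeded mCherryLow by 2.10 ± 0.49 and mCherryHigh by 1.26 ± 0.34 on the log2(CPM + 1) scale (± SE, n = 3 each). Cd74 showed smaller differences than the chain genes it escorts. Less the median of all genes, the differences were 1.51 and 0.72 for Cd74, against 6.40 and 4.83 for H2-Aa.

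The balance of chains to invariant chain also differed. Per kilobase, the mean of H2-Aa, H2-Ab1 and H2-Eb1 was 0.393, 0.305 and 0.339 of Cd74 in DTC 1, 2 and 3. It was 0.0179, 0.0252 and 0.0149 of Cd74 in mCherryHigh 1, 5 and 6, and 0.0186, 0.00133 and 0 in mCherryLow 1, 5 and 6. The lowest DTC ratio was above the ratio in each of the other 6 libraries. In level per kilobase, the order of DTC means was Cd74 at 555 ± 133, H2-Ab1 at 249 ± 45.2, H2-Aa at 199 ± 37.4, H2-Eb1 at 121 ± 25.003, H2-DMa at 19.8 ± 3.44, H2-DMb1 at 13.3 ± 1.21 and Ciita at 6.43 ± 0.910 CPM per kilobase (SD, n = 3). Of the neighbours in that order only H2-Ab1 and H2-Aa overlapped within 1 SD, although H2-Aa was below H2-Ab1 in each DTC library. In mCherryHigh the order was Cd74 at 229 ± 40.2, H2-DMa at 15.2 ± 2.62, H2-DMb1 at 8.66 ± 2.76, H2-Ab1 at 7.96 ± 5.58, H2-Aa at 3.91 ± 0.658, H2-Eb1 at 1.48 ± 1.33 and Ciita at 0.171 ± 0.134 CPM per kilobase (SD, n = 3), where H2-DMb1 with H2-Ab1, H2-Ab1 with H2-Aa, and H2-Eb1 with Ciita overlapped within 1 SD. In mCherryLow the order of means was Cd74 at 149 ± 92.3, H2-DMa at 10.6 ± 1.88 and H2-DMb1 at 8.18 ± 3.76 CPM per kilobase, with H2-Ab1, H2-Aa, H2-Eb1 and Ciita at 2.44 ± 4.16, 1.18 ± 1.97, 0.895 ± 1.502 and 0.160 ± 0.162 (SD, n = 3). Those last 4 genes overlapped within 1 SD, as did H2-DMa with H2-DMb1 and H2-DMb1 with H2-Ab1. Within each mCherryLow library, however, the order of these 3 genes was the same. In mCherryLow 1, 5 and 6, H2-DMa had 12.2, 8.52 and 11.1 CPM per kilobase and H2-DMb1 had 11.5, 4.08 and 9.01. H2-Ab1 had 7.24, 0.0775 and 0.

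**Figure D2:**
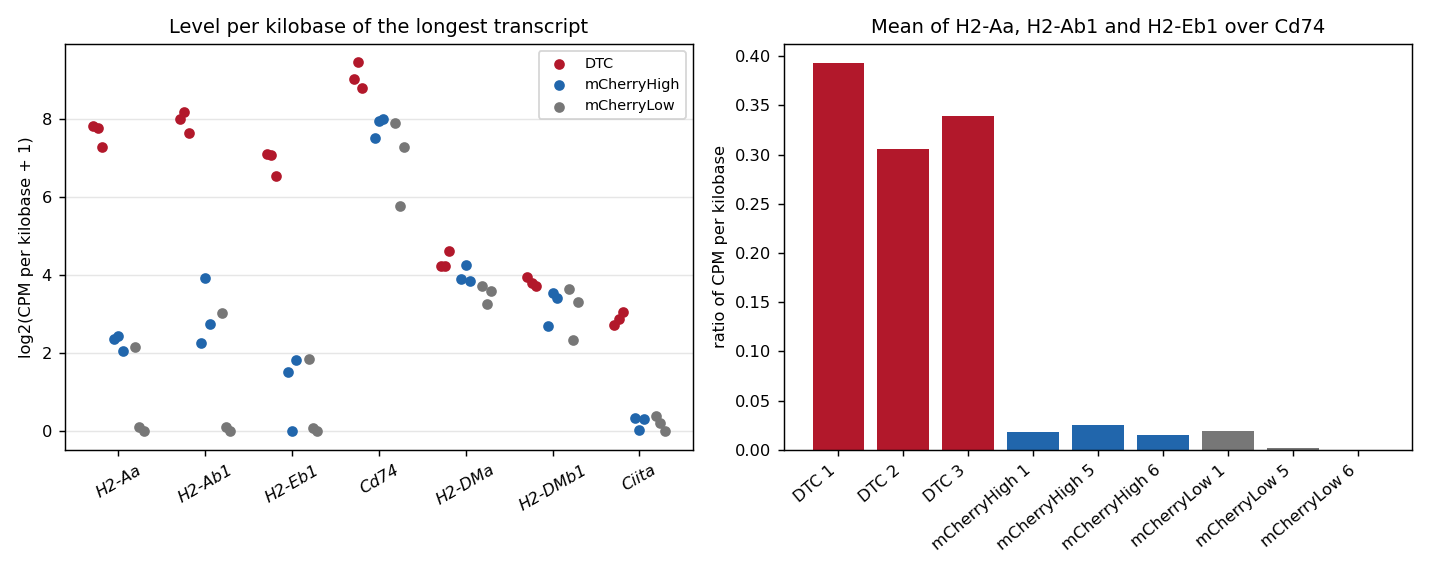
Left, log2(CPM per kilobase + 1) of each member in each library, with DTC, mCherryHigh and mCherryLow from left to right within a gene. Right, bars of the mean of H2-Aa, H2-Ab1 and H2-Eb1 over Cd74, both per kilobase, in each library, which run from 0.305 to 0.393 in DTC and no higher than 0.0252 in the other libraries.

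The peptide exchange genes H2-DMa and H2-DMb1 were present in all 9 libraries and showed the smallest differences of the members between DTC and the other groups. H2-DMa (ENSMUSG00000037649), the alpha chain of H2-DM, had 35.8, 35.6 and 47.6 CPM in DTC, against 28.0, 36.4 and 26.8 CPM in mCherryHigh and 24.4, 17.1 and 22.3 CPM in mCherryLow. DTC overlapped with mCherryHigh through mCherryHigh 5 and did not overlap with mCherryLow. H2-DMb1 (ENSMUSG00000079547), a beta chain of H2-DM, had 20.6, 18.03 and 17.3 CPM in DTC, against 7.77, 15.1 and 13.6 CPM in mCherryHigh and 16.1, 5.73 and 12.6 CPM in mCherryLow. The lowest DTC library was above every other library, by a small margin.

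DTC minus mCherryLow was 0.87 ± 0.43 for H2-DMa and 0.75 ± 0.54 for H2-DMb1, and DTC minus mCherryHigh was 0.37 ± 0.42 and 0.62 ± 0.54 (log2(CPM + 1), ± SE, n = 3 each). Less the median of all genes tested, these differences were 0.28, 0.16, −0.17 and 0.08. After quantile normalization H2-DMb1 turned to −0.37 for DTC minus mCherryLow and −0.30 for DTC minus mCherryHigh, while H2-DMa for DTC minus mCherryHigh was −0.04 in edgeR and −0.0024 with TMM scaling, so no direction is given for them. Of the 50-base windows of H2-DMb1, 72.8% are unique among annotated transcripts, the others being shared with its copy H2-DMb2, so reads of these genes may be split. Exons of Brd2 on the opposite strand cover 10.4% of the exonic bases of H2-DMa. The library kit does not mark strand, and Brd2 itself had 154 to 286 CPM in DTC, 432 to 497 in mCherryHigh and 143 to 287 in mCherryLow.

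Ciita, the regulator, was well above the detection limit in DTC alone. Ciita (ENSMUSG00000022504) had 33.5, 38.0 and 44.4 CPM in DTC, against 1.55, 0.102 and 1.43 CPM in mCherryHigh and 1.95, 0.939 and 0 CPM in mCherryLow. The groups outside DTC overlapped fully, at no more than 14 reads in any library. DTC exceeded mCherryLow by 4.46 ± 0.60 and mCherryHigh by 4.37 ± 0.63 on the log2(CPM + 1) scale (± SE, n = 3 each). Among DTC libraries the order of Ciita was the reverse of that of H2-Eb1, with DTC 3 highest in Ciita and lowest in all 3 chain genes and Cd74. The second Ciita entry (ENSMUSG00000075404), which the GENCODE annotation used here does not hold, had 3 reads in DTC 1, 1 read in mCherryLow 1 and none elsewhere, and was never tested. Dexi, on the opposite strand, covers 3.45% of the exonic bases of Ciita and had 12.7 to 20.6 CPM in DTC, 14.0 to 41.6 in mCherryHigh and 17.5 to 39.0 in mCherryLow.

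Counted together, DTC libraries were above all mCherryLow libraries for 7 of 7 members that passed the filter on low values, where 39.0% of all genes tested showed this and 14.2% were lower without overlap. DTC were above all mCherryHigh libraries for 6 of 7, the exception being H2-DMa, beside 31.4% of all genes tested (lower without overlap, 13.2%). With mCherryLow, the genes H2-Aa, H2-Ab1, H2-Eb1 and Ciita passed the filter of 1 CPM in 3 of 6 libraries through DTC, since each reached 1 CPM in only 1 mCherryLow library. These counts are given beside the background, and nothing is read from them.

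**Figure D3:**
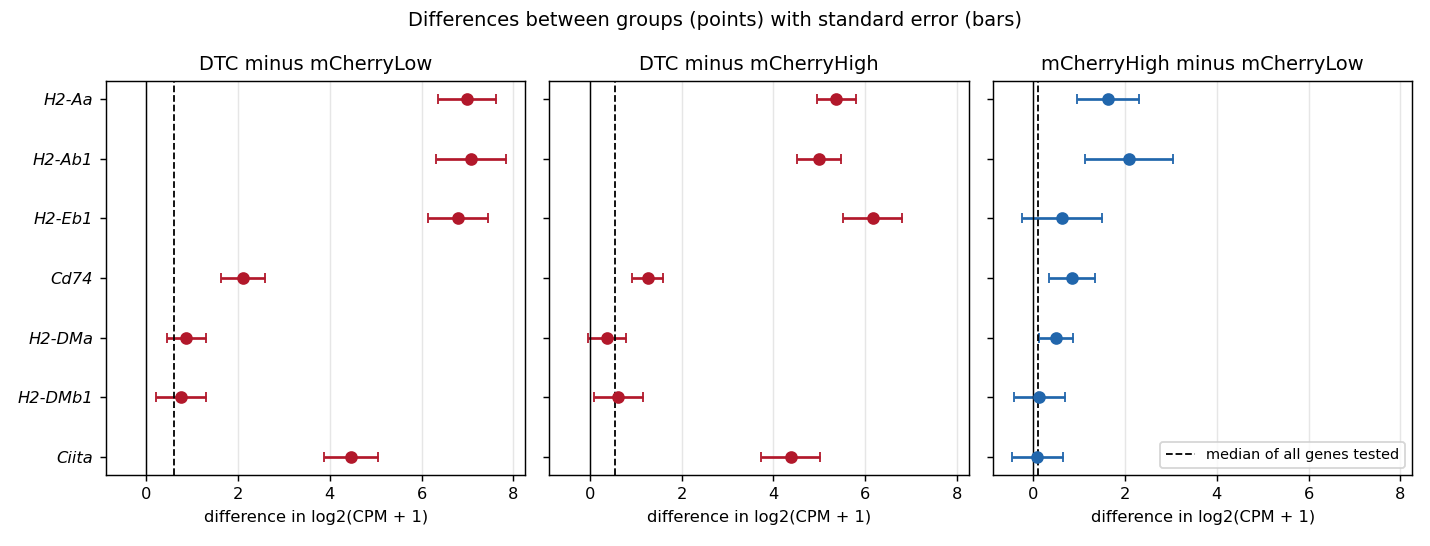
Difference in log2(CPM + 1) for each member with its standard error, for DTC minus mCherryLow, DTC minus mCherryHigh and mCherryHigh minus mCherryLow. The dashed line marks the median of all genes tested, at 0.59, 0.55 and 0.09, and H2-DMa and H2-DMb1 lie nearest to it in both DTC panels.

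mCherryHigh was compared with mCherryLow at 6 weeks, which asks whether class II levels go with the level of the Gstt1-mCherry reporter. No member passed the test: limma called 0 of 7 members at an adjusted p under 0.05, and 0 of 15437 genes overall (0% in either direction). All 7 differences were above 0, with a median of 0.63, beside a median of 0.09 over all genes. At an unadjusted p under 0.05 limma had 1 of 7 members, H2-Aa, beside 1448 genes overall (9.38%). edgeR on the recovered reads called 0 genes with 1221 at an unadjusted p under 0.05, and DESeq2 called 132 genes with 1388, none of them a member.

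H2-Ab1 differed by 2.09 ± 0.96 and H2-Aa by 1.62 ± 0.68 (log2(CPM + 1), mCherryHigh minus mCherryLow ± SE, n = 3 each), with adjusted p of 0.557 and 0.526 in limma. The low libraries were mCherryLow 5 and mCherryLow 6, while mCherryLow 1 lay within or above the mCherryHigh range for H2-Aa, H2-Ab1 and H2-Eb1. mCherryLow 5 and 6 shared a code series and had 10649995 and 11861241 reads. mCherryLow 1 had another code series and 2051266 reads, so library, series and depth cannot be told apart here. H2-DMa was the only member without overlap, at 30.4 ± 5.26 CPM in mCherryHigh and 21.3 ± 3.76 CPM in mCherryLow (SD, n = 3), beside 10.2% of genes tested that were higher and 5.78% that were lower without overlap. Its difference of 0.50 ± 0.37 had an adjusted p of 0.710 in limma. Cd74 differed by 0.84 with an adjusted p of 0.645. The differences of H2-Eb1, H2-DMb1 and Ciita, 0.63, 0.13 and 0.09, changed sign under at least 2 alternative settings. The adjusted p of the members in mCherryHigh with mCherryLow ran from 0.511 to 0.999 over all alternatives.

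Other genes of the class II pathway were called in both directions. A list of 19 further genes, from the known pathway, held the peptide-loading modulators, the promoter factors, the endosomal proteases and the ubiquitin ligases that turn class II over. In DTC with mCherryLow limma called 8064 genes at an adjusted p under 0.05 (43.1%), and of the list 5 of 19 tested were higher (34.2% of all genes) and 1 lower (8.87% of all genes). Of those called higher, Ctss, March1, H2-Oa and H2-Ea passed the filter only with DTC libraries counted. Without adjustment 8 of 19 had p under 0.05, beside 51.3% of all genes. The median difference of the list was 0.57, beside 0.59 over all genes. In DTC with mCherryHigh, where limma called 5949 genes (30.2%), 2 of 19 were called higher (23.0% of all genes) and 2 lower (7.19% of all genes), with a median of 0.96 beside 0.55. Without adjustment 6 of 19 had p under 0.05, beside 42.5% of all genes. In mCherryHigh with mCherryLow 0 of 15 were called, with 1 at an unadjusted p under 0.05, and edgeR and DESeq2 also called 0. The split with mCherryLow depended on the scaling, at 2 higher and 3 lower after quantile normalization, 5 and 4 with TMM scaling and 4 and 4 in edgeR. With mCherryHigh it was 2 and 1, 2 and 3, and 2 and 3 under the same settings.

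Ctss, the protease that trims Cd74 in dendritic cells and B cells, rose furthest, with 616, 612 and 1193 CPM in DTC, against 28.0, 22.6 and 55.1 CPM in mCherryHigh and 31.7, 0.0939 and 28.4 CPM in mCherryLow. DTC exceeded mCherryLow by 6.24 ± 1.01 (adjusted p = 8.9e-04) and mCherryHigh by 4.51 ± 0.43 (adjusted p = 5.7e-04, limma, n = 3 each). In mCherryLow, Ctss reached 1 CPM only in mCherryLow 1 and 6. It passed the filter with mCherryLow only with DTC libraries counted, so that call is a description. Ctsl, the protease with that role in thymic epithelium, fell to 266, 381 and 246 CPM in DTC, against 1112, 1653 and 1430.1 CPM in mCherryHigh and 854, 1198 and 1307 CPM in mCherryLow. Its differences were −1.91 ± 0.34 with mCherryLow (adjusted p = 0.0013) and −2.24 ± 0.34 with mCherryHigh (adjusted p = 0.0021). The proteases of Cd74 thus changed in opposite directions, with no overlap between DTC and the other groups for either gene.

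March1, a ubiquitin ligase that removes class II from the surface of dendritic cells and B cells, had 37.3, 33.1 and 121 CPM in DTC, against 1.55, 5.41 and 4.09 CPM in mCherryHigh and 1.46, 3.29 and 0 CPM in mCherryLow. It rose by 4.63 ± 0.71 over mCherryLow (adjusted p = 7.1e-04) and by 3.64 ± 0.67 over mCherryHigh (adjusted p = 0.0039) in limma, while its widely expressed relative March8 was called in neither comparison. In mCherryLow, March1 reached 1 CPM only in mCherryLow 1 and 5. It passed the filter with mCherryLow only with DTC libraries counted, so that call is a description. Ctss, Ctsl and March1 kept their calls in all 17 alternatives of each comparison. Lgmn, an endosomal protease, fell by 0.98 in DTC with mCherryHigh alone (SE 0.34, adjusted p = 0.049) and lost the call in 7 of 17 alternatives, among them leaving out DTC 1, DTC 2 or any mCherryHigh library (adjusted p = 0.20, 0.071, 0.087, 0.14 and 0.094). Whether the 2 comparisons differ for Lgmn was not tested.

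Among the promoter factors only Nfya, the DNA-contacting subunit of NF-Y, was called. It had 37.3, 30.2 and 57.4 CPM in DTC, against 23.3, 6.22 and 21.4 CPM in mCherryHigh and 10.2, 5.26 and 7.25 CPM in mCherryLow, a rise of 2.30 ± 0.51 over mCherryLow (adjusted p = 0.0039, limma), with an adjusted p of 0.0521 after quantile normalization. Rfx5, a subunit of the RFX complex that Ciita needs, stood at 1.52, 15.6 and 4.33 CPM in DTC, against 0, 30.6 and 31.8 CPM in mCherryHigh and 28.3, 5.54 and 28.0 CPM in mCherryLow. It did not pass the test in either comparison, and mCherryHigh 1 and mCherryLow 5 lay apart from their groups. Rfxank, Rfxap, Nfyb, Nfyc and Creb1 were not called either. The genes of low level, H2-Oa, H2-Ob, H2-Eb2 and the E alpha chain H2-Ea (listed as H2-Ea-ps), had 1.08 to 11.9 CPM in DTC. H2-Oa and H2-Ea were called higher in DTC with mCherryLow, by 1.94 ± 0.53 (adjusted p = 0.011) and 2.06 ± 0.66 (adjusted p = 0.026). H2-Oa had 0, 0.0939 and 0.506 CPM in mCherryLow 1, 5 and 6, and H2-Ea reached 1 CPM in mCherryLow 5 alone. Both passed the filter of 1 CPM in 3 of 6 libraries through DTC, so their calls are a description. H2-Ea lost the call in 8 of 16 alternatives, also without DTC 1, DTC 3, mCherryLow 1 or mCherryLow 6 (adjusted p = 0.10, 0.11, 0.053 and 0.10), and H2-Oa in 2 of 13.

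Olfactory receptor genes, which serve odour sensing in the nose, were also counted at low level in DTC. The mean of 375 such genes was 4.17 to 10.9 CPM in DTC, 0.181 to 3.04 CPM in mCherryHigh and 0.123 to 0.482 CPM in mCherryLow, and their 90th percentile in DTC was 10.7 to 27.7 CPM. H2-Oa, H2-Ob, H2-Eb2 and H2-Ea lay under the 90th percentile of the same library in DTC. Ciita at 33.5 to 44.4 CPM lay above the 90th percentile in each DTC library, and the chain genes were further above. These CPM are not scaled for transcript length. Ciita, with a transcript of 6007 bases, had only 5.57 to 7.39 CPM per kilobase in DTC. The olfactory receptor genes were not put on that scale, so whether Ciita exceeds this background per kilobase was not tested. H2-DMa and Cd74 were above it in each DTC library too, whereas H2-DMb1 was above it in DTC 1 and DTC 2 and, at 17.3 CPM, below it in DTC 3. Of the tumour markers, Krt19 was above the 90th percentile in each DTC library. Epcam was above it in DTC 1 alone, at 21.3 against 19.8 CPM, and below it in DTC 2 and DTC 3. The part of this background in the low-level results was not tested. Leaving out mCherryHigh 1, the shallowest library, raised the pathway genes called in DTC with mCherryHigh to 8, 6 higher and 2 lower. Calls over all genes rose from 5949 to 6997 in that fit.

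**Figure D4:**
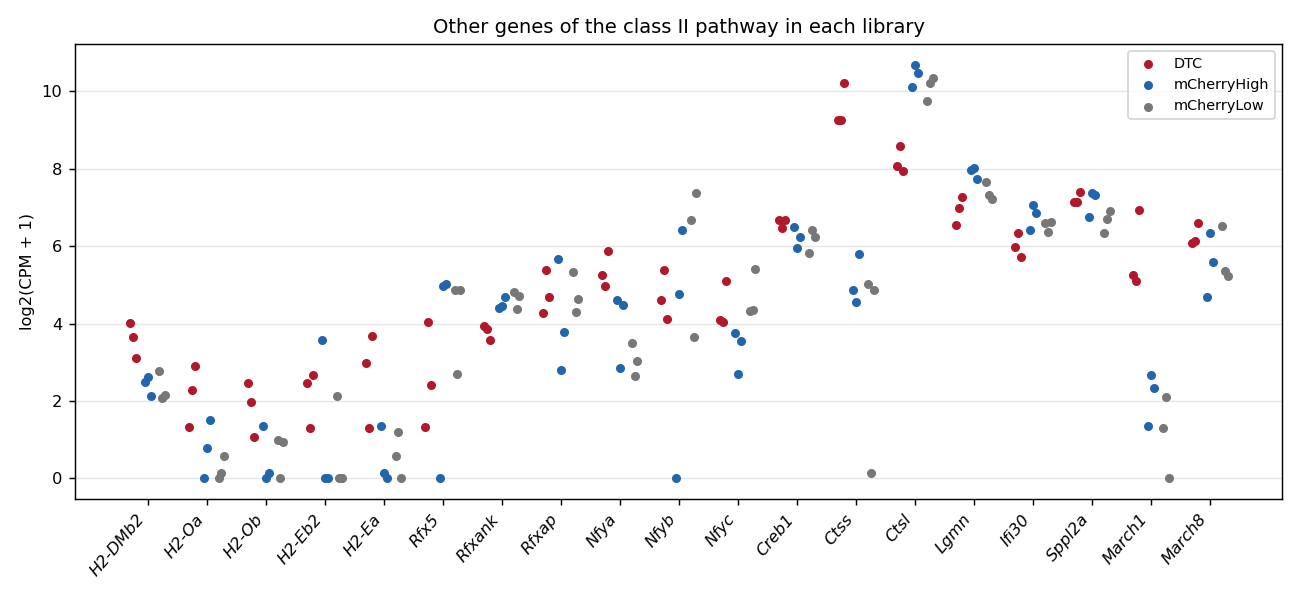
log2(CPM + 1) of 19 other class II pathway genes in each library, with DTC, mCherryHigh and mCherryLow from left to right within a gene. Ctss and March1 are higher and Ctsl lower in all 3 DTC libraries, and the 4 genes H2-Oa, H2-Ob, H2-Eb2 and H2-Ea stay at low level throughout.

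Upstream of Ciita, the interferon gamma axis had members called in both directions, and 2 factors of myeloid cells rose. Of 11 genes tested, 2 were called higher (34.2% of all genes) and 1 lower (8.87% of all genes) in DTC with mCherryLow, and 2 higher (23.0%) and 2 lower (7.19%) in DTC with mCherryHigh. These numbers are too small to set the list apart from all genes. With mCherryLow the split was 2 higher and 3 lower with TMM or median-of-ratios scaling and in edgeR, and after quantile normalization it was 2 and 0 in both comparisons. The list had median differences of 0.78 and −0.11 beside 0.59 and 0.55 over all genes. The genes called higher were in both comparisons Irf8 and Spi1. Irf8, an interferon regulatory factor of dendritic cells, B cells and monocytes, had 71.5, 104 and 115 CPM in DTC, against 3.11, 3.88 and 8.59 CPM in mCherryHigh and 9.26, 3.66 and 8.18 CPM in mCherryLow. Spi1, listed as Sfpi1, encodes PU.1, which drives myeloid and B cell genes including the myeloid promoter of Ciita, and had 41.1, 64.8 and 159 CPM in DTC, against 1.55, 10.6 and 8.49 CPM in mCherryHigh and 11.2, 0 and 5.48 CPM in mCherryLow. Over mCherryLow they rose by 3.66 ± 0.48 and 4.15 ± 0.85 (adjusted p = 4.5e-04 and 0.0027, limma), and over mCherryHigh by 4.06 ± 0.52 and 3.54 ± 0.70 (adjusted p = 0.0015 and 0.0052). In DESeq2 the adjusted p of Spi1 with mCherryLow was 0.065.

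Of the axis itself, Jak1, a kinase of the interferon gamma receptor, fell by 1.22 ± 0.33 relative to mCherryLow (adjusted p = 0.011) and fell by 1.34 ± 0.33 relative to mCherryHigh (adjusted p = 0.013). Ifngr2, a receptor chain, fell by 1.18 ± 0.36 relative to mCherryHigh (adjusted p = 0.031) and lost this call in 6 of 17 alternatives. Jak1 lost its call in 2 of 17 alternatives of each comparison. Its adjusted p after quantile normalization was 0.11 with mCherryLow and 0.083 with mCherryHigh. Without DTC 1 the adjusted p of Jak1 was 0.074 with mCherryLow and 0.075 with mCherryHigh, and that of Ifngr2 was 0.12. Without DTC 3, mCherryHigh 5 or mCherryHigh 6 the adjusted p of Ifngr2 was 0.058, 0.10 and 0.11. Irf1, a factor that acts on the interferon-responsive promoter of Ciita, had 166, 183 and 84.4 CPM in DTC, against 200.4, 91.2 and 180.4 CPM in mCherryHigh and 116, 36.9 and 117 CPM in mCherryLow. Irf1 overlapped between DTC and each other group and was not called. Ifng itself was not analysed here.

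Class I genes, which present cytosolic peptides on nearly all cells, were called in both directions. Of 8 tested, 2 were called higher (34.2% of all genes) and 1 lower (8.87%) in DTC with mCherryLow, and 1 higher (23.0%) and 1 lower (7.19%) in DTC with mCherryHigh. With mCherryLow the split was 2 higher and 4 lower with TMM scaling, and 2 and 3 with median-of-ratios scaling and in DESeq2. Their median difference was 0.04 and −0.33, each below the median of all genes. H2-D1, a class I heavy chain, had 1434, 2148 and 1759 CPM in DTC, against 3192, 4221 and 3782 CPM in mCherryHigh and 3936, 2917 and 3795 CPM in mCherryLow. It fell by 1.00 ± 0.34 relative to mCherryLow (adjusted p = 0.032) and fell by 1.08 ± 0.35 relative to mCherryHigh (adjusted p = 0.038). Each call was lost in 6 of 17 alternatives, with adjusted p of 0.075 to 0.23 without DTC 1 or any mCherryLow library and 0.080 to 0.24 without DTC 1 or any mCherryHigh library. The immunoproteasome subunit Psmb8 rose in both comparisons, by 1.79 ± 0.45 and 2.67 ± 0.68 (adjusted p = 0.0073 and 0.015), and without DTC 3 its adjusted p with mCherryHigh was 0.060. Nlrc5, the class I counterpart of Ciita, rose over mCherryLow by 2.22 ± 0.56 (adjusted p = 0.0076) with an adjusted p of 0.055 without DTC 1 and of 0.29 after quantile normalization, where the difference was 0.97. It was not called in DTC with mCherryHigh.

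Many markers of cells that carry class II in lung were higher in the same DTC libraries. No gene of any marker list was called in mCherryHigh with mCherryLow, where limma called 0 of 15437 genes, so nothing is read from this. There 9 of 11 dendritic cell, 10 of 15 macrophage and monocyte and 5 of 9 alveolar type 2 markers passed the filter. Markers near 0 outside DTC passed it with DTC only through their DTC levels, so their calls are a description. Of the dendritic cell markers limma called 10 of 11 tested higher in DTC with mCherryLow (34.2% of all genes) and 9 of 11 in DTC with mCherryHigh (23.0% of all genes), and their summed level was 444 to 537 CPM in DTC, 54.4 to 122 in mCherryHigh and 47.3 to 70.5 in mCherryLow. The defining genes Flt3, Zbtb46 and Xcr1 had 35.7 to 53.3, 77.5 to 116 and 33.1 to 46.5 CPM in DTC, against 3.11 to 3.78, 15.5 to 40.4 and 1.94 to 7.77 CPM in mCherryHigh and 1.95 to 3.76, 21.8 to 38.0 and 1.13 to 3.29 CPM in mCherryLow. No defining dendritic cell gene was at 0 in any library. Without DTC 3 the called dendritic cell markers in DTC with mCherryHigh were 5, while all genes called higher fell from 4532 to 2257.

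Of 15 macrophage and monocyte markers 11 were called higher in DTC with mCherryLow (34.2% of all genes) and 10 in DTC with mCherryHigh (23.0% of all genes). Their summed level was 3105 to 7534 CPM in DTC, 308 to 761 in mCherryHigh and 466 to 704 in mCherryLow. The difference was below 0 for 1 of 15 with mCherryLow and for 2 of 15 with mCherryHigh, Cd68 in both. Cd68 had means of 160 CPM in DTC, 209 in mCherryHigh and 175 in mCherryLow, and Mrc1 had 213, 127 and 205 CPM. C1qa had 58.5 to 120 CPM in DTC, against 0 to 1.55 in mCherryHigh and 0 to 0.488 in mCherryLow, and Chi3l3, of alveolar macrophages, had 967 to 2416 CPM in DTC against 0 to 1.55 and 0 to 1.46. C1qb and C1qc had 60.9 to 98.5 and 42.2 to 75.4 CPM in DTC. Outside DTC these 2 genes had reads in mCherryLow 1 alone, at 25.8 and 29.3 CPM. C1qa was at 0 in 2 mCherryHigh libraries and 1 mCherryLow library, Chi3l3 in 1 and 2, and Marco in 1 and 1, while Csf1r was detected in all 9. Without DTC 1 the called macrophage and monocyte markers in DTC with mCherryLow were 7, while all genes called higher fell from 6405 to 2937.

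The remaining lists are given beside the same shares of all genes called higher, 34.2% with mCherryLow and 23.0% with mCherryHigh. B cell markers were called higher for 3 of 6 tested with mCherryLow and 3 of 8 tested with mCherryHigh, numbers too small to set the list apart, with sums of 80.9 to 200.2 CPM in DTC, 26.3 to 35.0 in mCherryHigh and 17.1 to 25.7 in mCherryLow. The defining gene Cd79a nevertheless had at most 4.33 CPM in any DTC library, while Ms4a1 had 26.3 to 55.2 CPM in DTC, and neither was at 0 in any library. T and NK cell markers were called higher for 7 and 6 of 8 tested, with sums of 75.0 to 394 CPM in DTC, 13.1 to 17.1 in mCherryHigh and 7.89 to 25.8 in mCherryLow. Only 3 of the 9 found passed the filter in mCherryHigh with mCherryLow, and most were near 0 outside DTC, so these calls are a description. Cd3e was at 0 in 2 mCherryHigh and 3 mCherryLow libraries. In DTC 1, 2 and 3 Cd3e had 2.28, 4.87 and 27.1 CPM, below the 90th percentile of olfactory receptor genes in each library. Leaving out DTC 1, 2 or 3 lowered the T and NK cell calls to 2, 3 and 3 with mCherryLow. With mCherryHigh they fell to 2, 3 and 1, and quantile normalization lowered them to 2 in each comparison. Of all genes, those called higher fell in these fits from 6405 to 2937, 3727 and 3222 with mCherryLow. With mCherryHigh they fell from 4532 to 1951, 3255 and 2257. After quantile normalization they were 2264 and 1615.

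Pan-leukocyte markers were called higher for 3 of 6 in each comparison, beside 34.2% and 23.0% of all genes, with sums of 465 to 1450.2 CPM in DTC, 174 to 521 in mCherryHigh, which overlapped with DTC, and 238 to 426 in mCherryLow, which did not. Ptprc had 66.3 to 154 CPM in DTC, 9.32 to 22.9 in mCherryHigh and 8.18 to 17.7 in mCherryLow. The differences of 2 of the 6, Cd52 and Cd53, were below 0 in each comparison. Their means were 30.3 and 155 CPM in DTC, 51.1 and 177 in mCherryHigh, and 38.5 and 191 in mCherryLow. Alveolar type 2 markers were called higher for 5 of 9 and 5 of 8, beside the same shares, with overlapping sums of 159 to 423 CPM in DTC, 119.6 to 198 in mCherryHigh and 121 to 163 in mCherryLow. Sftpc had 9.89, 175 and 7.58 CPM in DTC and was at 0 in 1 mCherryHigh and 1 mCherryLow library. Without DTC 1, 2 or 3 the alveolar type 2 calls were 2, 3 and 3 with mCherryLow and 2, 2 and 2 with mCherryHigh, and 1 in each after quantile normalization. Endothelial markers were called higher for 6 and 3 of 7, beside the same shares, with sums of 180.3 to 282 CPM in DTC, 45.6 to 51.7 in mCherryHigh and 29.1 to 39.0 in mCherryLow, and without DTC 1 for 3 and 1. Ductal epithelial markers were called higher for 1 and lower for 1 of 9 with mCherryLow, and lower for 1 of 9 with mCherryHigh. Without DTC 3 the ductal calls were 3 higher and 1 lower with mCherryLow, and 2 higher and 1 lower with mCherryHigh. In each of these alternative fits fewer of all genes were called higher, as given for the T and NK cell list. The part of all these cell types in the class II levels was not tested.

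The list sums and the class II chains differed in their order among DTC libraries. DTC 3 had the highest sums of macrophage, T and NK cell, pan-leukocyte, dendritic cell and B cell markers and the lowest sum of ductal markers. Its summed H2-Aa, H2-Ab1 and H2-Eb1 level of 573 CPM was the lowest of DTC, against 791 and 820.4 CPM in DTC 1 and DTC 2. The dendritic cell list was itself mixed, as Flt3, Ccr7, Fscn1 and Batf3 were also lowest in DTC 3 and Ccl22 lay between. Its other genes were highest in DTC 3, with Itgax at 129 CPM against 44.9 and 57.0 in DTC 1 and DTC 2. What underlies these orders was not tested. The alveolar type 2 sum was highest in DTC 2 and the endothelial sum in DTC 1.

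**Figure D5:**
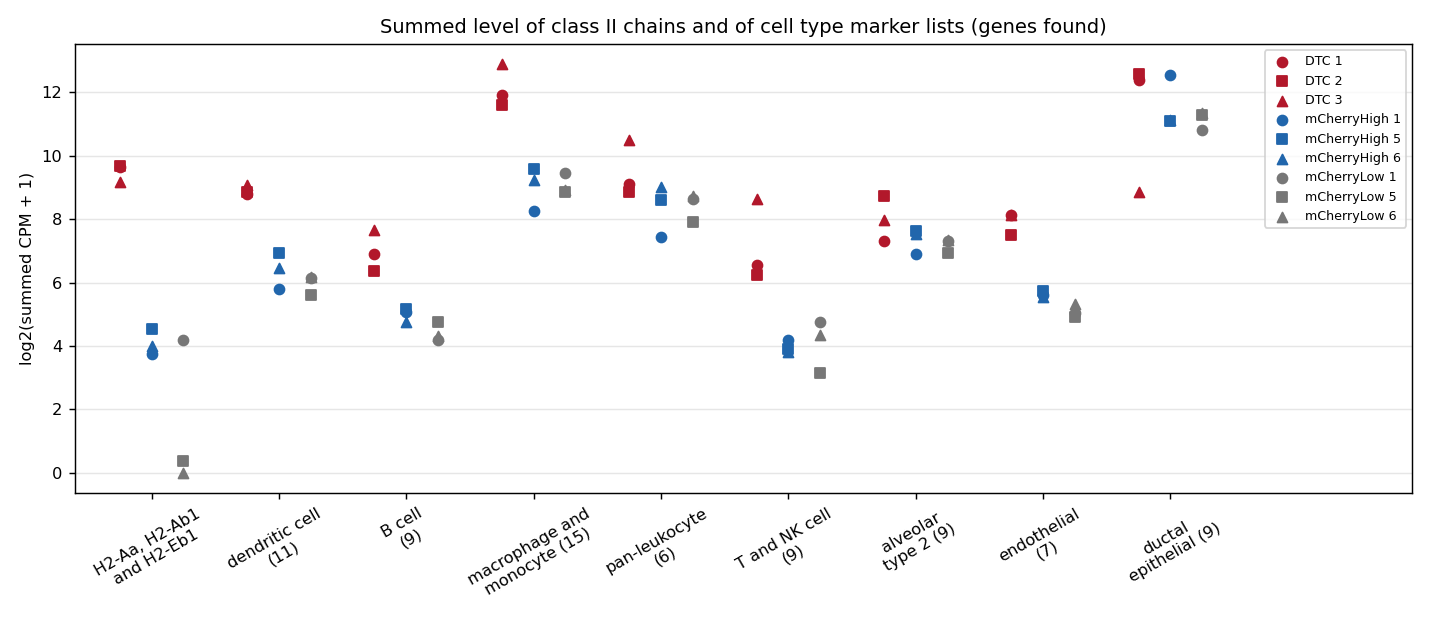
Summed CPM of the 3 chain genes and of each marker list on a log2(sum + 1) scale, with DTC, mCherryHigh and mCherryLow from left to right and a symbol for each library. DTC libraries lie above the others in the chain genes and in the dendritic cell, B cell, macrophage, T and NK cell and endothelial lists, and DTC 3 alone is low in the ductal list.

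The genes whose profile over the 9 libraries was most like that of H2-Ab1 were named by the root mean square difference of log2(CPM + 1) profiles, each centred on its own mean, among 12142 candidates. Nearest was Cd83, a surface protein of mature dendritic cells and B cells that keeps class II at the surface, at 0.965, with 39.6, 63.8 and 58.4 CPM in DTC, 1.55, 4.18 and 1.84 CPM in mCherryHigh and 1.95, 0.0939 and 0.0843 CPM in mCherryLow. Dapk1, F7, Cd300lf, Bend4, Csf2rb, Hal and Lrrtm4 followed, at up to 1.26. The member H2-Aa was at 0.513 and H2-Eb1 at 1.21 from H2-Ab1. Around Ciita the nearest of 15410 candidates were Rims3, H2afz, Ermap, Adrbk2 and Epha10, at 0.341 to 0.397, with H2-Eb1 and H2-Aa at 1.14 and 1.19. All of these genes had higher means in DTC than in mCherryHigh and mCherryLow.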

How the data were processed

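RNA-seq was made from sorted tumour cells with an RNAqueous-Micro kit, SMART-seq v4 cDNA and Nextera XT libraries, per the labels' protocols. The build was mm9, per the submitters' processing notes. The sources used here name neither aligner nor counter. The authors deposited CPM for 24012 entries in 9 columns. All values (100%) were whole multiples of 1 read within 0.01 read (largest deviation 0.000265), so reads and totals of 643748 to 11861241 were recovered.

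For each comparison a gene had to reach 1 CPM in 3 or more of its 6 libraries. Testing used limma 3.58.1 in R 4.3.3 with its trend option and log2(CPM + 1) values, group alone, two-sided, with Benjamini-Hochberg adjustment over all genes at 0.05. limma called 8064, 5949 and 0 genes, and edgeR 4.0.16 on the recovered reads 7657, 5242 and 0 (DTC with mCherryLow, DTC with mCherryHigh, mCherryHigh with mCherryLow). DESeq2 1.42.0 was a further alternative. The procedure was tested on simulated counts.

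The members, the gene lists and the naming rule were all chosen with earlier results of these data known. Named were all members, any gene of the pathway, Ciita regulator and class I lists, the defining markers, and the 8 and 5 genes nearest to H2-Ab1 and Ciita, apart from 2 list genes not reported here. Of 116 other list entries 113 were found. Alternatives were pseudocounts of 0.5 and 5, no filter or 5 CPM, quantile, median-of-ratios and TMM scaling, all 9 libraries in one fit, thinning to the shallowest library, leaving out each library, and, for mCherryHigh with mCherryLow, the label number as a block, the code series as a term and the libraries numbered 5 and 6 alone. Intervals and floors cover counting error only. Transcript lengths and unique windows came from GENCODE M21 and promoters from RefSeq GRCm38.p6. Figures and descriptions used Python with pandas and matplotlib.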

Additional observations from a re-analysis of the deposited data

How the results depend on the processing

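No member was called in mCherryHigh with mCherryLow under any alternative, and the range with 1 library left out was 0 to 0. The other pathway genes called were 0 to 0 in mCherryHigh with mCherryLow, 4 to 8 in DTC with mCherryLow and 3 to 8 in DTC with mCherryHigh when each library was left out in turn, beside 6 and 4 with all libraries. Over all genes the same fits called 3628 to 7008 in DTC with mCherryLow and 2538 to 6997 in DTC with mCherryHigh, beside 8064 and 5949. The 8 in DTC with mCherryHigh came without mCherryHigh 1, the shallowest library, where 6997 of all genes were called. The cause was not tested.

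Signs changed for 3 members in mCherryHigh minus mCherryLow, none of them called. H2-Eb1 was −0.15 after thinning and −0.20 with the code series as a term. H2-DMb1 was −0.004461 with median-of-ratios scaling, −0.002511 with TMM scaling, −0.04 without mCherryHigh 5 and −0.26 without mCherryLow 5, and ran up to 0.41 when the other libraries were left out. Ciita was −0.15 after quantile normalization, −0.0688 in edgeR, −0.12 in DESeq2 and −0.28 with the code series as a term, and −0.33 (without mCherryLow 6) to 0.48 when each library was left out. The cause was not tested. No gene of the pathway, regulator or class I lists called with DTC changed direction under any alternative.

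Other scalings shifted the median of all genes. It was 0.59 for DTC minus mCherryLow as reported, −0.14 after quantile normalization, 0.30 with median-of-ratios and 0.16 with TMM scaling. The calls in that comparison were 6405 higher and 1659 lower as reported, and 2264 and 2036 after quantile normalization, 5647 and 3010 with median-of-ratios scaling, 5368 and 3559 with TMM scaling. For DTC with mCherryHigh they were 4532 and 1417 as reported, and 1615 and 1535, 4021 and 1909, and 3687 and 2334 under the same scalings.

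Same-numbered mCherryHigh and mCherryLow libraries had correlations of deviations of −0.204, −0.0234 and 0.270 for the numbers 1, 5 and 6, which does not show that the numbers pair the libraries, nor that they do not. The titles share numbers and letters between these groups without saying what they mark. With the number as a replicate block 0 members and 0 other pathway genes were called. No paired analysis was possible with DTC because DTC shares only the number 1 with the other groups. The low totals of the DTC libraries and mCherryHigh 1 limit genes under about 5 CPM.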
